A study of Mus musculus with 23 samples.

Results

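Milk carries proteins that protect the gland and the suckling young from microbes, and 8 genes for such proteins were followed here across mammary epithelial cell types and reproductive stages. The genes were Lao1, Wfdc12, Pigr, Ltf, Lcn2, S100a8, S100a9 and Cel, and they were taken as named, through the probe sets (the array's sets of short probes against 1 transcript) whose only annotated symbol is 1 of these names. The array carried 9 such probe sets, out of 34945 with a single symbol. All 8 genes passed the filter on dim signals, among 15378 of 18193 named genes. The mice were C57BL/6 females, and messenger RNA of their mammary epithelial cells had been hybridised to 23 Affymetrix arrays. The labels give 3 cell types, called mature luminal cells, luminal progenitors and stem cells here, and 6 stages: 3-week and 9-week virgins, pregnancy at day 10, 16 or 19, and retired breeders. No genetic change or drug is given for any group, and the surface markers used to separate the cells are not given in the sources used here. Retired breeders differ from virgins in both age and past pregnancies, so the effects of these cannot be told apart.

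Stage and cell type together made 16 groups, 7 with 2 arrays and 9 with 1, and for day 19 there was a single array, of mature luminal cells. Separate animals are not stated for the arrays of a group, so the p-values below cover the spread between these arrays, which may be technical, and nothing more. Values are log2 signals as deposited, and array medians lay between 4.51 and 5.47. Tests were made in limma, a linear model with a moderated spread, and passed where p, adjusted by Benjamini-Hochberg for all 15378 genes, was under 0.05. Values after ± are standard errors from that model. Where a group had 2 arrays, they differed in a way shared between groups, and the 8 arrays titled replicate 1 are set apart below where a result turns on them. Markers of basal and myoepithelial cells ran highest under the stem cell label, with a mean log2 signal of 9.84 to 12.62. Luminal progenitors had 7.18 to 11.04, which overlaps that range, and mature luminal cells 6.84 to 9.73. These markers do not tell stem cells from other basal cells. The luminal progenitor markers did not separate the luminal types, at 8.11 to 10.25 in mature luminal cells and 8.85 to 9.79 in luminal progenitors. Neither did the mature luminal markers, at 5.73 to 11.82 in mature luminal cells, 6.99 to 11.69 in luminal progenitors and 6.63 to 10.32 in stem cells. Because these are bulk samples, fewer cells of a type and less RNA per cell cannot be told apart.

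The members act at different points of milk defence. Lao1, L-amino acid oxidase, releases hydrogen peroxide from free amino acids in mouse milk, and lactoperoxidase can use this peroxide against bacteria. Wfdc12 belongs to the family of small secreted protease inhibitors with a whey acidic protein fold, and Pigr is the receptor that carries polymeric antibody across the epithelium into milk. Ltf, lactoferrin, binds iron, and Lcn2, lipocalin 2, captures the siderophores with which bacteria collect iron. S100a8 and S100a9 together form calprotectin, which binds zinc and manganese and is a major protein of neutrophils. Cel, carboxyl ester lipase, is the bile salt-stimulated lipase of milk and pancreas, a digestive rather than an antimicrobial enzyme.

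The 4 members that rose in pregnancy are shown first by the start of their genes, in RefSeq promoter windows of the mouse build GRCm38.p6, which run from 250 bases before to 50 bases after the annotated start on the gene's own strand. All 8 members had such a window. Capitals mark matches on either strand to TTCNNNGAA, the palindrome bound by STAT factors, or to TTGCNNAA, a form of the site of C/EBP factors. Lao1 lies on the plus strand of chromosome 4 (window chr4:118961717-118962016), Wfdc12 on the minus strand of chromosome 2 (chr2:164190509-164190808), Pigr on the plus strand of chromosome 1 (chr1:130826434-130826733) and Cel on the minus strand of chromosome 2 (chr2:28563354-28563653).
Lao1: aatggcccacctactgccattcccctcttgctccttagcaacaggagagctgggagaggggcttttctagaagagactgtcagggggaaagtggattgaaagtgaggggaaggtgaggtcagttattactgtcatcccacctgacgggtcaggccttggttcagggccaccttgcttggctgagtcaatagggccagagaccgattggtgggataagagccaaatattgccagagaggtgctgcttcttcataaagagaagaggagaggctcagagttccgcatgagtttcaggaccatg
Wfdc12: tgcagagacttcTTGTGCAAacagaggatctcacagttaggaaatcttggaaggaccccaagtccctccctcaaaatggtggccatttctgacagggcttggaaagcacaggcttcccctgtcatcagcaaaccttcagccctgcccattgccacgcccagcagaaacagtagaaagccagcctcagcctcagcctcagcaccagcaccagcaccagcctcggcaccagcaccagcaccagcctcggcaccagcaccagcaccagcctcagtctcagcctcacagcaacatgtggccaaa
Pigr: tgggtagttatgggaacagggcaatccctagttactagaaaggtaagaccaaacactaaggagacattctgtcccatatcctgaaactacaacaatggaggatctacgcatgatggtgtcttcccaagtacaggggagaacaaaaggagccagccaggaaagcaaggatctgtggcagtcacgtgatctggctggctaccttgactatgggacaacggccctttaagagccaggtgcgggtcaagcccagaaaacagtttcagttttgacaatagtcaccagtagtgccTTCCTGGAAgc
Cel: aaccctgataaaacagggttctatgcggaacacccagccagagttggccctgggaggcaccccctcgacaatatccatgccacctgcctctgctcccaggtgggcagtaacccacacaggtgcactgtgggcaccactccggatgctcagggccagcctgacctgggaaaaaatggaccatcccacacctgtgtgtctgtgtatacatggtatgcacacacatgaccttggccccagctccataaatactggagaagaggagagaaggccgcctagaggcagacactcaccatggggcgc
The STAT letters were found in 1 of the 8 windows, that of Pigr, beginning at base 40 of the transcript, and in 8.3% of all 32841 mouse promoter windows. The C/EBP letters were found in the windows of Wfdc12, Ltf, Lcn2 and S100a9, against 10.8% of all windows. In Wfdc12 they began 238 bases before the start. These matches describe the letters alone, and a window without one says nothing about the factor.

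In pregnancy Lao1, Wfdc12, Pigr and Cel rose. With days 10 and 16 averaged and the 3 cell types weighted equally, 4 of the 8 members were higher than in 9-week virgins and none was lower, where 7.13% of all genes passed in either direction and 3.77% passed as higher. The median difference of the 8 members was 2.63 on the log2 scale, against 0.10 for all genes, and 7 members had a positive difference. The milk proteins moved in the same comparison, with 6 of 8 higher: Csn1s1, a casein, by 6.74, and Wap, whey acidic protein, by 5.95. Markers of cell type moved as well: all 4 mature luminal markers kept were lower (median -3.15), and 3 of 8 basal markers were higher (median 1.23). Their part in the differences of the members was not tested. Each 9-week group had an array titled replicate 1, while day 16 and the pregnant luminal progenitors had none. In the 7 groups with a pair of arrays, the one titled replicate 1 was the lower in 6 for Lao1. It was the lower in 5 each for Wfdc12, Pigr and Cel. The part of this imbalance was not tested.

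**Figure D1:**
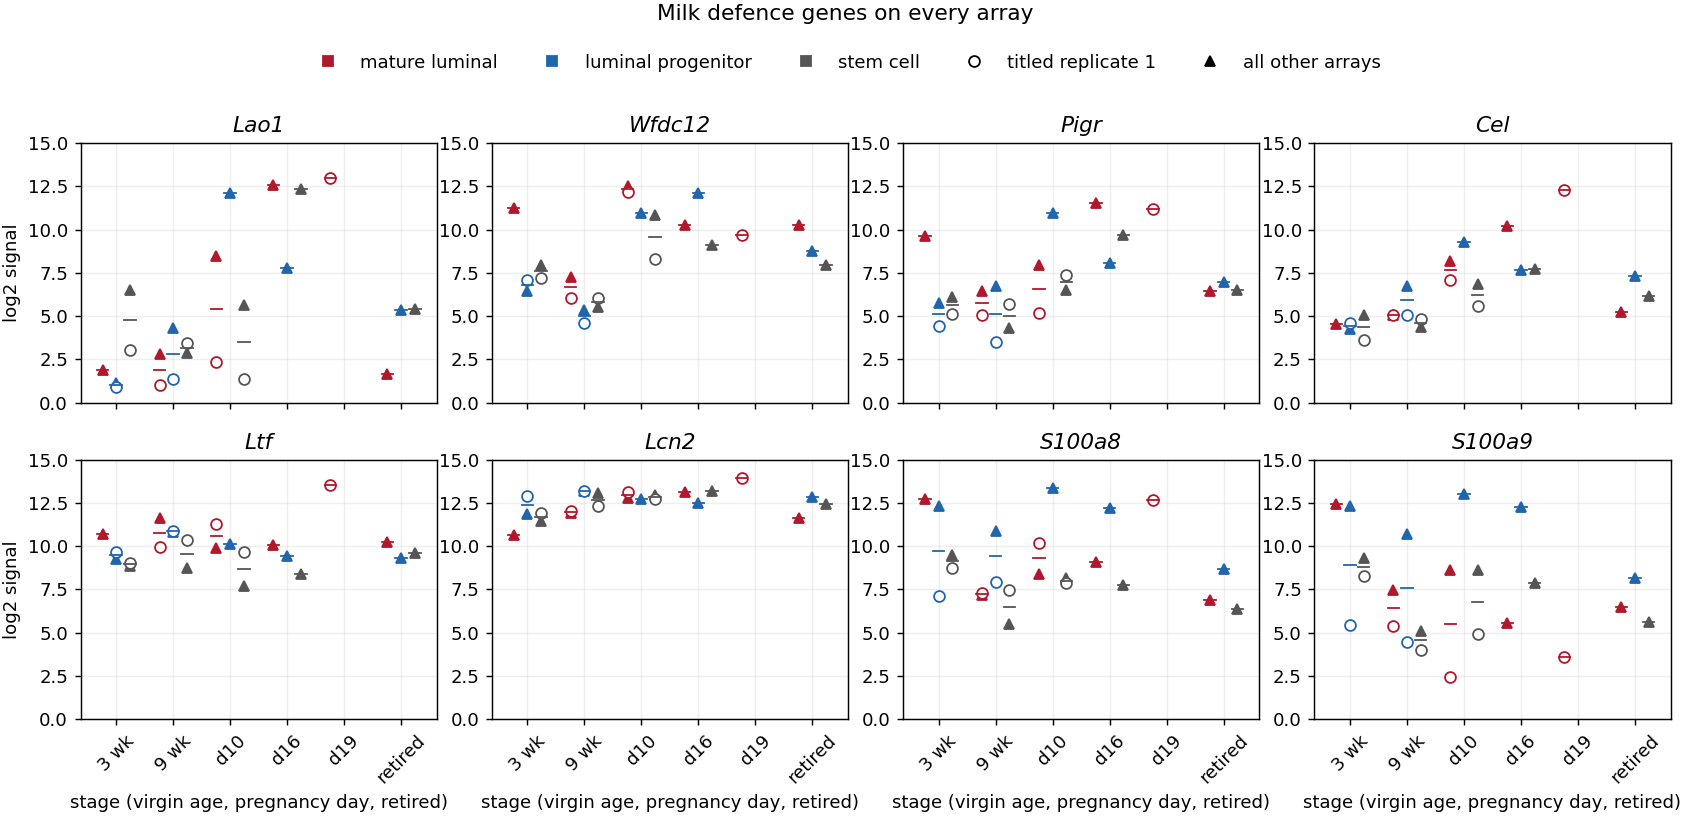
Log2 signal of the 8 genes (1 panel each, vertical axis) at the 6 stages (horizontal axis) on all 23 arrays. Colours give the cell type, open circles are arrays titled replicate 1, filled triangles all other arrays, and short bars the group means. Wfdc12 is lowest in 9-week virgins, and Lao1 separates the arrays of day 10 by as much as 6.12 within a group.

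Wfdc12 (probe set 1449191_at, Entrez gene 192200, chr2:164189231-164190558) gave the clearest separation. At day 10 its log2 signal was 12.52 and 12.20 in mature luminal cells, 10.94 in luminal progenitors and 10.85 and 8.29 in stem cells, and at day 16 it was 10.28, 12.12 and 9.09 in the same order of cell types. In 9-week virgins it was 7.27 and 6.06 in mature luminal cells, 5.36 and 4.60 in luminal progenitors and 5.53 and 6.07 in stem cells. All 8 arrays of days 10 and 16 lay above all 6 arrays of 9-week virgins, which held for 1 of the 8 members and for 0.657% of all genes in this direction. The difference was 4.91 ± 0.42 (limma, adjusted p = 7.35e-05). By cell type it passed in luminal progenitors (6.55 ± 0.76, adjusted p = 0.00549) and in mature luminal cells (4.65 ± 0.71, adjusted p = 0.00639). The pregnant luminal progenitor arrays differed in markers of other cell types too. The mean basal signal was 9.91 at day 10 and 11.04 at day 16, against 7.18 and 8.12 in luminal progenitors of 9-week virgins, and the median difference was 3.06 for 8 basal, 3.20 for 6 fibroblast and 3.50 for 10 leukocyte genes. No gene of these lists passed there, and their part in the Wfdc12 difference was not tested. Within stem cells the difference of 3.53 ± 0.71 had an adjusted p of 0.0906. With the replicate number as a block, which leaves day 10 as the only pregnancy stage, it was 3.77 (adjusted p = 0.0202). It passed as well with arrays titled replicate 1 as a block (3.37, adjusted p = 0.0156) and without the day-10 stem cell array titled replicate 1 (4.17, adjusted p = 0.0319). A single member passed within luminal progenitors, where 0.156% of all genes passed, 2 within mature luminal cells, where 2.25% passed, and none within stem cells, where 0.26% passed. Luminal progenitors had a single array at day 10, so leaving it out makes their comparison day 16 alone. In luminal progenitors the call ended on leaving out the day-10 array (7.14, adjusted p = 0.057) or the 9-week array titled replicate 1 (6.17, adjusted p = 0.0968), and in mature luminal cells on leaving out the 9-week array titled replicate 1 (4.05, adjusted p = 0.0621).

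Wfdc12 was also high outside pregnancy. In retired breeders it stood at 10.26 in mature luminal cells, 8.74 in luminal progenitors and 7.98 in stem cells, all above the 6 arrays of 9-week virgins. Such separation was found in 1 of the 8 members and in 2.61% of all genes in this direction. The difference from 9-week virgins, 3.18 ± 0.54, did not pass (unadjusted p = 7.84e-05, adjusted p = 0.301), in a comparison where 0.0065% of all genes passed and none of the members. It passed without the day-10 stem cell array titled replicate 1, at the same 3.18 (adjusted p = 0.0495). In 3-week virgins Wfdc12 had 11.23 in mature luminal cells, 6.46 and 7.10 in luminal progenitors and 7.95 and 7.22 in stem cells. Over all cell types the ranges overlapped (6.46 to 11.23 in 3-week virgins, 4.60 to 7.27 in 9-week virgins). The 3-week mature luminal array had the largest Gapdh 3-prime over 5-prime excess of the 23 arrays (5.16). Its summed log2 level of 10 leukocyte genes was also the largest (13.41). The part of either in its Wfdc12 value was not tested. The 3-week difference of 2.72 ± 0.47 missed the threshold (adjusted p = 0.0539), and it passed with arrays titled replicate 1 as a block (2.61, adjusted p = 0.00836) and without either day-10 stem cell array (2.72, adjusted p = 0.0413 and 0.0395). Without that mature luminal array, and so over the other two cell types, it was 1.79 (adjusted p = 0.699). None of the 8 members passed between 3-week and 9-week virgins, where 0.176% of all genes passed.

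Lao1 (1417650_at, Entrez gene 100470, chr4:118961967-118968910) had the widest range of the members, 0.92 to 12.97, and lay below the array median on 13 of 23 arrays. At day 10 it had 8.45 and 2.33 in mature luminal cells, 12.11 in luminal progenitors and 5.67 and 1.38 in stem cells. At day 16 it reached 12.56 in mature luminal cells, 7.76 in luminal progenitors and 12.36 in stem cells, against 1.0 to 4.33 on the 6 arrays of 9-week virgins. The single arrays of day 16 were thus all high, while the 2 arrays titled replicate 1 of day 10 lay inside the 9-week range. The difference between pregnancy and 9-week virgins was 6.32 ± 1.07 (limma, adjusted p = 0.00567). With the replicate number as a block, which leaves day 10 as the only pregnancy stage and drops luminal progenitors, it was 1.93 ± 0.90 and did not pass (adjusted p = 0.262). Within arrays titled replicate 1, again day 10 alone, it was -0.36, against 6.47 within all other arrays, 2 values without a test. The summed log2 level of 10 leukocyte genes was 8.82 to 10.95 on arrays titled replicate 1 and 8.69 to 13.41 on the rest, and that of 7 plasma and B cell genes was 11.57 to 13.09 and 11.59 to 12.91. Both sums overlapped between these sets of arrays. The leukocyte median was nevertheless lower on arrays titled replicate 1, at 9.68 against 11.02. There 2 to 8 of the 10 leukocyte genes lay above the array median, against 8 to 10 on the rest. The plasma and B cell medians were 12.43 and 12.34. Their part in the Lao1 values was not tested. No single cell type passed for Lao1, at 7.07 ± 1.8 in mature luminal cells (adjusted p = 0.0695), 7.1 ± 1.93 in luminal progenitors and 4.79 ± 1.8 in stem cells. With arrays titled replicate 1 as a block, mature luminal cells (6.41, adjusted p = 0.00548) and luminal progenitors (5.79, adjusted p = 0.0485) passed. Mature luminal cells also passed without their day-10 array titled replicate 1 (8.6, adjusted p = 0.0211). The 3 arrays highest in leukocyte genes were that of 3-week mature luminal cells and the only pregnant luminal progenitor arrays. Without them the pregnancy difference of Lao1 was 5.93 (adjusted p = 0.0273). It then covered mature luminal and stem cells alone, so it is not the same comparison.

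Pigr (Entrez gene 18703, chr1:130826684-130852249) was read by 2 probe sets. On 1455490_at, used in the fit, day 10 gave 7.97 and 5.21 in mature luminal cells, 10.98 in luminal progenitors and 6.51 and 7.40 in stem cells, and day 16 gave 11.56, 8.06 and 9.67 in the same order. The 9-week arrays ran from 3.50 to 6.77, so 2 day-10 arrays fell inside their range. Pregnancy raised the log2 signal by 3.66 ± 0.63 over 9-week virgins (adjusted p = 0.00643), and the other probe set, 1450060_at, gave 2.41 ± 0.52 (adjusted p = 0.0187). The fit with the replicate number as a block leaves only day 10, in mature luminal and stem cells, so it is not the same comparison. There the difference was 1.38 ± 0.68 (adjusted p = 0.286). No single cell type passed, at 3.31 ± 1.07 in mature luminal cells, 4.38 ± 1.15 in luminal progenitors and 3.29 ± 1.07 in stem cells.

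Cel (1417257_at, Entrez gene 12613, chr2:28555819-28563403) climbed with the day of pregnancy in mature luminal cells. These cells had 5.07 and 5.05 in 9-week virgins, 8.18 and 7.10 at day 10, 10.21 at day 16 and 12.30 at day 19. Luminal progenitors had 9.30 at day 10 and 7.64 at day 16, against 6.72 and 5.09 in 9-week virgins. Stem cells had 6.88 and 5.57 at day 10 and 7.71 at day 16, against 4.36 and 4.84 in 9-week virgins. Only the day-10 stem cell array titled replicate 1 lay inside the 9-week range of all cell types, 4.36 to 6.72. The pregnancy difference was 2.93 ± 0.42 (adjusted p = 0.00239), and within mature luminal cells it was 3.87 ± 0.71 (adjusted p = 0.0167). The mature luminal call ended on leaving out either 9-week array (3.88 and 3.86, adjusted p = 0.108 and 0.0962), the day-10 array titled replicate 2 (3.60, adjusted p = 0.0526) or the day-16 array (2.58, adjusted p = 0.221). Without the day-16 array the comparison was day 10 alone. Pancreatic acinar genes, the other known company of Cel, summed to a log2 level of 4.82 to 8.24 per array, with at most 2 of 7 above the array median.

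Between days 10 and 16 no gene passed, 0 of 15378 in limma, so none of the members did. At an unadjusted p under 0.05, 1.38% of all genes and 1 of the 8 members stood out, Lao1 with 3.89 ± 1.44. At day 19, on 1 mature luminal array, Lao1 had 12.97, Cel 12.30, Ltf 13.55 and Lcn2 13.93, the highest of all 23 arrays for each of these genes. Against the 9-week mature luminal arrays, Cel was higher by 7.24 ± 0.93 (adjusted p = 0.00385) and Lao1 by 11.07 ± 2.36 (adjusted p = 0.0495), and these 2 members passed where 1.14% of all genes did. The Lao1 call ended on leaving out any of 10 of the 22 other arrays, with differences of 10.16 to 11.97 and adjusted p-values up to 0.149. Lcn2 (1.97 ± 0.43, adjusted p = 0.0576), Pigr (5.46 ± 1.4, adjusted p = 0.105), S100a8 (5.4 ± 1.74, adjusted p = 0.218) and Ltf (2.78 ± 0.94, adjusted p = 0.253) did not pass. Lcn2 passed on leaving out either 3-week luminal progenitor array or either 9-week stem cell array (1.96 to 1.97, adjusted p 0.0397 to 0.0459). The other Pigr probe set passed, with 6.68 ± 1.16 (adjusted p = 0.0208). With arrays titled replicate 1 as a block, 5 members passed: Lao1 12.38, Cel 7.57, Pigr 5.99, Wfdc12 3.35 and Lcn2 1.89, with adjusted p-values from 0.000319 to 0.0317. The day-19 array is itself titled replicate 1 and has no second array to check it.

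**Figure D2:**
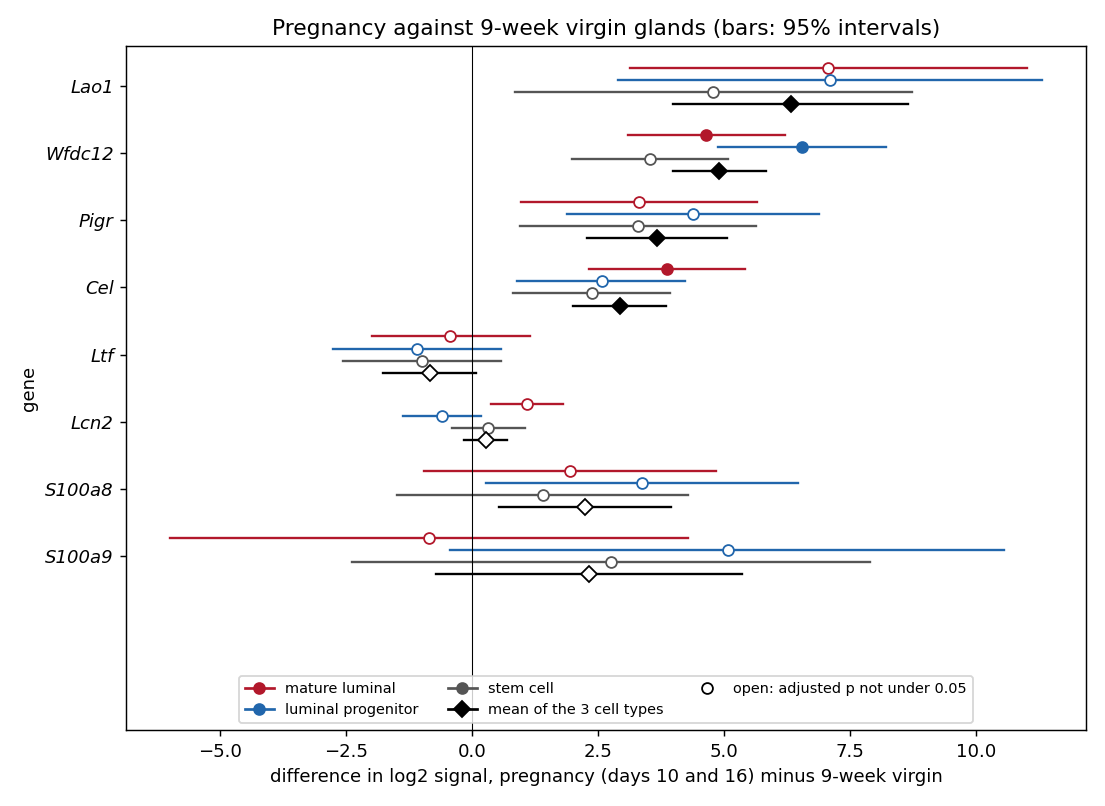
Difference in log2 signal (horizontal axis) between pregnancy, days 10 and 16 averaged, and 9-week virgins for the 8 genes (vertical axis). Circles show each cell type, black diamonds the mean of the 3, bars 95% intervals from the model, and filled symbols an adjusted p under 0.05. The filled diamonds are Lao1, Wfdc12, Pigr and Cel, at 6.32, 4.91, 3.66 and 2.93.

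The iron-defence genes Ltf and Lcn2 were high at every stage and did not pass in pregnancy. Ltf (1450009_at, Entrez gene 17002, chr9:111019292-111042766) lay above the median of every array, and its pregnancy difference was -0.84 ± 0.42 (adjusted p = 0.243), from 7.69 to 11.28 on the 8 arrays of days 10 and 16 against 8.73 to 11.60 on the 6 arrays of 9-week virgins. Across cell types Ltf ran higher in mature luminal cells than in stem cells by 1.44 ± 0.42, just outside the threshold (adjusted p = 0.0564). With arrays titled replicate 1 as a block this difference passed at 1.5 (adjusted p = 0.0128), and it passed on leaving out any of 6 single arrays (adjusted p 0.0288 to 0.0485): the 9-week or day-10 stem cell array titled replicate 1, the 9-week mature luminal array titled replicate 1, the day-10 one titled replicate 2, or either retired array of these types. Lcn2 (1427747_a_at, Entrez gene 16819, chr2:32384637-32387739) had the narrowest range, 10.65 to 13.93, and a pregnancy difference of 0.27 ± 0.20 (adjusted p = 0.42). Within mature luminal cells it was 1.09 ± 0.33 (adjusted p = 0.13), and 1.13 with arrays titled replicate 1 as a block (adjusted p = 0.0417). Its lowest arrays were the mature luminal cells of 3-week virgins at 10.65, the 3-week stem cell array titled replicate 2 at 11.43 and the mature luminal cells of retired breeders at 11.60. Lcn2 was 1.04 ± 0.22 lower in 3-week than in 9-week virgins without passing (adjusted p = 0.0938), and it passed with arrays titled replicate 1 as a block (-1.02, adjusted p = 0.0227). Both genes are also known from neutrophil granules. Over the 23 arrays, the Pearson r with the mean of 14 neutrophil genes was -0.51 for Lcn2 and -0.15 for Ltf, a description over arrays that share cell type and stage. How much of either signal came from neutrophils was not tested.

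The calprotectin genes lie side by side on chromosome 3, S100a8 at chr3:90669071-90670034 on the plus strand and S100a9 at chr3:90692630-90695721 on the minus strand. Their start windows (chr3:90668821-90669120 and chr3:90695672-90695971) are printed because the genes diverged on some arrays.
S100a8: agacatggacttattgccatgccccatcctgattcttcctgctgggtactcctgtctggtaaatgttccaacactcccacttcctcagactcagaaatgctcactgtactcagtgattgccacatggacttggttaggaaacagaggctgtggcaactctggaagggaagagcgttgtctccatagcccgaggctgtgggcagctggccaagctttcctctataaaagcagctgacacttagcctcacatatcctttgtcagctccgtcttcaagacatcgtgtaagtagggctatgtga
S100a9: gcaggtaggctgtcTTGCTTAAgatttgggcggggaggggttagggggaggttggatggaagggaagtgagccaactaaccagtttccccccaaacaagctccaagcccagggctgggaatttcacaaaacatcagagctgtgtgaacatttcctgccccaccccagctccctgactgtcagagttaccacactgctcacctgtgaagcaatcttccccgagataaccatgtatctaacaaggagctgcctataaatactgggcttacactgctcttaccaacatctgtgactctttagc
The window of S100a9 held the C/EBP letters, in capitals, 236 bases before its start, and that of S100a8 held none of the motifs searched. The probe set of S100a8 is of a class (suffix _s_at) whose probes can match more than 1 transcript, so its signal may not be of that gene alone.

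S100a8 (1419394_s_at, Entrez gene 20201) was highest in luminal progenitors at most stages. It had 12.31 and 7.11 in luminal progenitors of 3-week virgins, 10.90 and 7.91 in those of 9-week virgins, 13.35 at day 10, 12.20 at day 16 and 8.68 in retired breeders. Stem cells had 9.51 and 8.72 in 3-week virgins, 5.49 and 7.47 in 9-week virgins, 8.15 and 7.86 at day 10, 7.75 at day 16 and 6.38 in retired breeders. The luminal progenitor arrays inside the range of the stem cells were the 2 titled replicate 1 and that of retired breeders. Averaged over the 5 stages with both types, luminal progenitors exceeded stem cells by 3.12 ± 0.78 (limma, adjusted p = 0.0448), the 1 member to pass where 4.38% of all genes did. The call ended on leaving out any of 13 of the 23 arrays (adjusted p 0.0537 to 0.175, lowest difference 2.57 without the day-10 luminal progenitor array). Leaving out the day-10 luminal progenitor array also removed day 10 from that average. With the replicate number as a block, which leaves only the 3-week and 9-week virgins, the difference was 1.76 (adjusted p = 0.27). Within arrays titled replicate 1, again these virgins alone, it was -0.59, against 4.03 over the 5 stages within all others. The stages thus differ between these values as well as the arrays.

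S100a9 (1448756_at, Entrez gene 20202) followed neutrophil transcripts closely. Luminal progenitors had 12.30 and 5.46 in 3-week virgins, 10.68 and 4.44 in 9-week virgins, 12.99 at day 10, 12.26 at day 16 and 8.13 in retired breeders. In stem cells it was 9.30 and 8.26 in 3-week virgins, 5.08 and 4.02 in 9-week virgins, 8.62 and 4.89 at day 10, 7.85 at day 16 and 5.62 in retired breeders. In each of the 7 groups of 2, the array titled replicate 1 was the lower, by 1.04 to 6.84. The difference between luminal progenitors and stem cells, 3.25 ± 1.38, did not pass (adjusted p = 0.226), but it passed with arrays titled replicate 1 as a block (2.87 ± 0.72, adjusted p = 0.0191).

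Neutrophil genes were measured beside these values, because calprotectin is made both by epithelium and by neutrophils. Over the 23 arrays the mean of 14 neutrophil genes had a Pearson r of 0.92 with S100a9 and 0.68 with S100a8, and within the 8 arrays titled replicate 1 these were 0.87 and -0.21. The log2 of the summed level of the 14 genes was 6.74 to 9.74 on arrays titled replicate 1, with 1 to 4 genes above the array median, and 6.61 to 13.05 on the other 15, with 0 to 11 above it. Cxcr2, Itgam and Prtn3 were each listed at 0 on at least 1 array titled replicate 1, and Cxcr2 on at least 1 of the others. The highest sums were on the day-10 luminal progenitor array (13.05), the 3-week mature luminal array (12.88), the 3-week luminal progenitor array titled replicate 2 (11.97) and the day-16 luminal progenitor array (11.62), and these 4 arrays also held the 4 highest S100a9 values. Of 11 neutrophil genes kept, 1 passed as higher in luminal progenitors than in stem cells, Clec4d by 3.15 (adjusted p = 0.0306). In this comparison 4.38% of all genes passed in either direction. The differences of the 11 ran from -0.03 to 4.43, so a gene with a larger difference than Clec4d did not pass. Without the 3 arrays highest in leukocyte genes, namely mature luminal cells of 3-week virgins and luminal progenitors of days 10 and 16, S100a8 differed between luminal progenitors and stem cells by 1.94 (adjusted p = 0.397) and S100a9 by 1.87 (adjusted p = 0.732). Without these luminal progenitor arrays the average lost days 10 and 16, so both differences covered virgins and retired breeders alone. They are not the same comparison as the one over all stages with both types. How much of the calprotectin signal came from neutrophils was not tested.

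**Figure D3:**
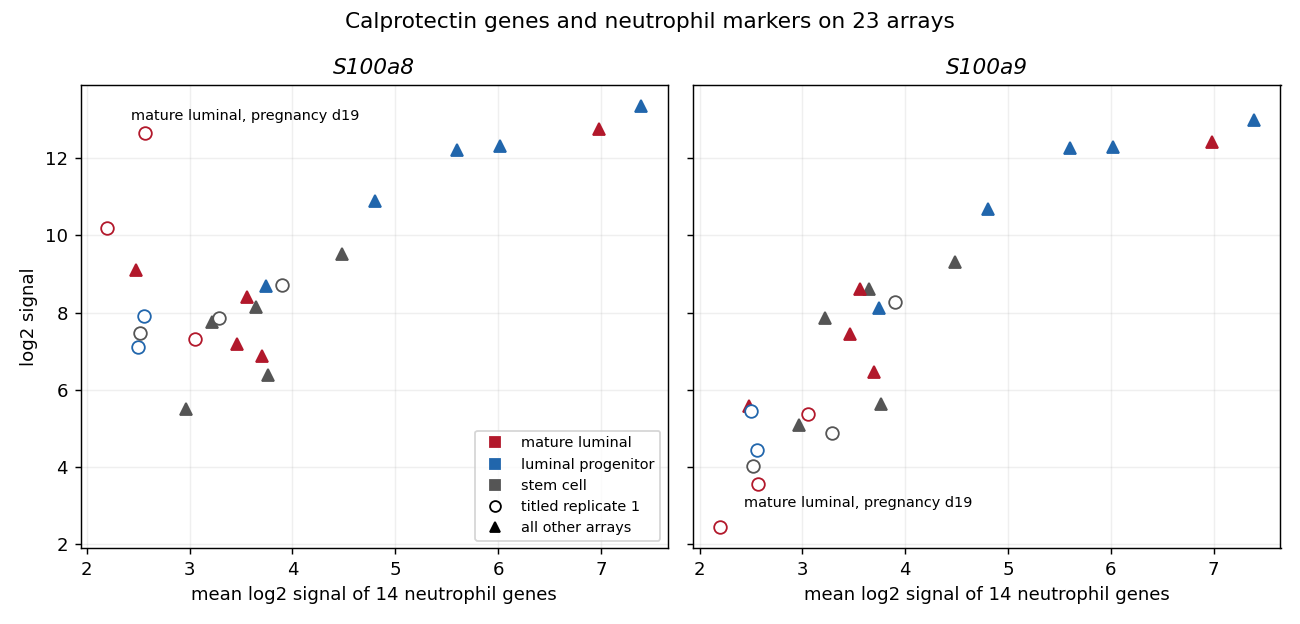
Log2 signal of S100a8 (left) and S100a9 (right) on the vertical axis against the mean log2 signal of 14 neutrophil genes on the horizontal axis, 1 point per array. S100a9 follows the neutrophil mean over all 23 arrays, while S100a8 on the day-19 mature luminal array is 12.65 at a neutrophil mean of 2.57.

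The pair parted most on 2 of the 4 mature luminal arrays of pregnancy, both titled replicate 1. At day 19 S100a8 had 12.65, the third highest of 23 arrays, while S100a9 had 3.56, the second lowest. At day 10 the mature luminal array titled replicate 1 had 10.20 for S100a8, the seventh highest, and 2.44 for S100a9, the lowest of all. The day-10 array titled replicate 2 had 8.39 for S100a8 and 8.60 for S100a9, and the day-16 array had 9.09 and 5.57. S100a8 also lay above S100a9, by less, on every other array titled replicate 1. Among these were 9-week luminal progenitors (7.91 against 4.44), 9-week stem cells (7.47 against 4.02) and day-10 stem cells (7.86 against 4.89). On the 2 mature luminal arrays of pregnancy titled replicate 1 the neutrophil genes were low, with summed log2 levels of 7.17 and 6.74. There Ngp, a neutrophil granule protein, was at 0.78 and 0.97. Over the 16 group means S100a8 and S100a9 correlated at a Pearson r of 0.61. Neither gene passed in pregnancy, at 2.24 ± 0.78 for S100a8 (adjusted p = 0.102) and 2.32 ± 1.39 for S100a9 (adjusted p = 0.329). Leaving out either 3-week luminal progenitor array lowered the adjusted p of S100a8 to 0.0364 or 0.036 at an unchanged 2.24.

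Between mature luminal and stem cells, the 1 member that passed was Wfdc12, higher by 2.15 ± 0.42 in mature luminal cells (adjusted p = 0.00782), where 8.34% of all genes passed and 1.56% passed as higher. The group mean of mature luminal cells was above that of stem cells in each of the 5 stages with both types. Single arrays overlapped at 9 weeks, with 7.27 and 6.06 against 5.53 and 6.07. The difference was 2.03 within arrays not titled replicate 1. Within those titled replicate 1 it was 1.95, over 9-week virgins (6.06 against 6.07) and day 10 (12.20 against 8.29) alone. The 3-week mature luminal and the retired stem cell arrays had the largest Gapdh 3-prime over 5-prime excess (5.16 and 3.77, against at most 2.72 on the others). Without them the Wfdc12 difference was 1.61 (adjusted p = 0.0849). Each was the only array of its group, so the average then lost 3-week virgins and retired breeders. It is not the same comparison as the one over all stages with both types. The part of the Gapdh excess was not tested. None of the members passed between mature luminal cells and luminal progenitors, where 0.124% of all genes did. The differences of the members ran from -2.69 ± 1.42 for S100a9 to 1.45 ± 0.43 for Wfdc12. The pregnancy effects of mature luminal and stem cells were compared directly, and no member passed (0.013% of all genes did). The interval of the Wfdc12 difference ran from -1.07 to 3.32 and that of Lao1 from -3.29 to 7.85, so sizeable differences between the cell types would not have been detectable.

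Over the 16 group means, the members fell into patterns with different neighbours, given as descriptions over groups that share cell type and stage. Cel correlated with Lao1 at r = 0.886 and Lao1 with Pigr at 0.831. The genes most like Lao1 were Gm12863 (0.964), Thrsp (0.963), a regulator of fatty acid synthesis, and Fabp3 (0.959), a fatty acid binding protein. Those most like Cel were Wfdc3 (0.958), Fads2 (0.952), a fatty acid desaturase, and Muc1 (0.951), a mucin of the milk fat globule membrane. Pigr ran with Atp13a4 (0.978), Scfd2 (0.963) and Gramd1b (0.936). S100a9 ran with Chil3 (0.978), Ngp (0.969) and Camp (0.959), which are products of neutrophils and other myeloid cells. The neighbours of Wfdc12 (Pik3ap1, 0.879), Ltf (Slc39a2, 0.894), Lcn2 (Rnf149, 0.9) and S100a8 (Mettl25, 0.868) were less close.

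Other genes of milk defence moved in both directions in pregnancy. Of 23 secreted antimicrobial and acute phase genes, 3 rose and 3 fell, where 7.13% of all genes passed in either direction. Lpo, lactoperoxidase, rose by 4.22 ± 0.82 (adjusted p = 0.0112), Wfdc3 by 1.98 and Wfdc18 by 0.59. Wfdc2, of the same family as Wfdc12, fell by 4.23 (adjusted p = 0.000828), with 6.46 to 10.41 on the 8 arrays of days 10 and 16 against 10.58 to 13.11 on the 6 of 9-week virgins. Reg3g, a secreted lectin that kills Gram-positive bacteria, fell by 4.56 (adjusted p = 5.61e-05), with 1.69 to 3.82 in pregnancy against 5.66 to 9.44 in 9-week virgins. Hp, haptoglobin, fell by 2.87 (adjusted p = 0.0111). Slpi, Wfdc5 and Wfdc15b, also of that family, did not pass (0.19, 0.19 and 0.10, adjusted p 0.873 to 0.908).

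**Figure D4:**
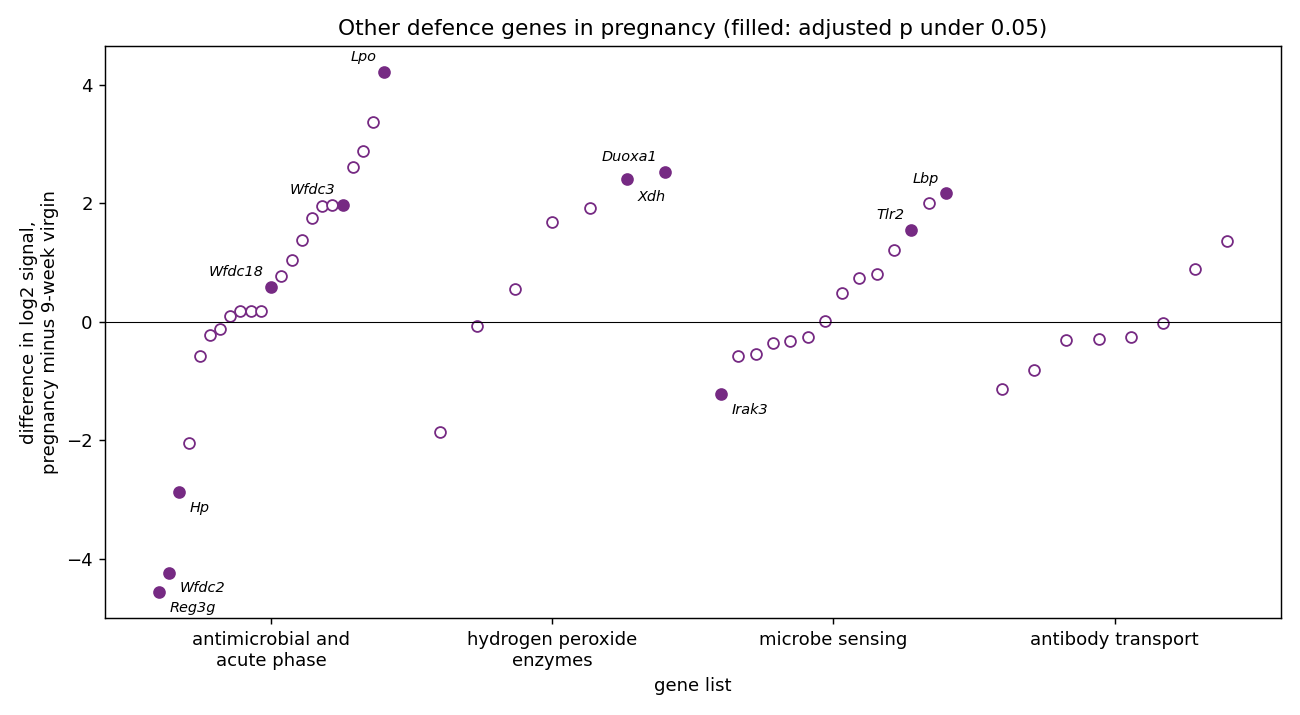
Difference in log2 signal between pregnancy and 9-week virgins (vertical axis, mean of the 3 cell types) for each kept gene of 4 defence lists (horizontal axis, sorted within a list). Filled points passed at an adjusted p under 0.05, and the largest rise and fall are Lpo at 4.22 and Reg3g at -4.56.

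Among 7 genes for enzymes that make hydrogen peroxide, as Lao1 does, or for their maturation, 2 rose, against the same 7.13% of all genes. Xdh, xanthine dehydrogenase of the milk fat globule, rose by 2.41 (adjusted p = 0.0119). Duoxa1, a maturation factor of the dual oxidases and not itself such an enzyme, rose by 2.53 (adjusted p = 0.00865). Duox1, a dual oxidase, did not pass (1.93, adjusted p = 0.085). Of 14 microbe sensing genes 3 passed, again beside 7.13% of all genes. Tlr2, a receptor for bacterial lipoproteins, rose by 1.56 (adjusted p = 0.0146), Lbp, which presents lipopolysaccharide, by 2.17 (adjusted p = 0.0286), and Irak3, an inhibitor of the pathway, fell by 1.22 (adjusted p = 0.0458). At day 19 in mature luminal cells Tlr2 was higher by 4.04 (adjusted p = 0.0225), Lbp by 6.14 (adjusted p = 0.0303) and Wfdc3 by 5.35 (adjusted p = 0.0229), and Reg3g was lower by 5.94. None of 8 antibody transport and plasma cell recruitment genes passed in the averaged pregnancy comparison, in which Pigr rose. Fcgrt, the receptor that carries IgG, fell by 2.29 within mature luminal cells (adjusted p = 0.0297). In 3-week virgins and in retired breeders none of these 4 lists had a gene that passed against 9-week virgins. Of all genes, only 0.176% passed in the 3-week comparison and 0.0065% in that of retired breeders.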

How the data were processed

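The authors deposited log2 expression values for 45101 probe sets on 23 arrays, from 0 to 14.28, and these were used as they stand. Which software summarised and scaled the arrays is not named by the labels. Genes were named through the platform annotation, and each was read from its probe set with the highest mean. Genes above their array's 40th percentile on 2 or more arrays were kept. All arrays entered a single limma 3.58.1 model (R 4.3.3) with a mean for each of 16 groups, eBayes with trend, two-sided tests and Benjamini-Hochberg adjustment for 15378 genes, on 7 residual and 4.74 prior degrees of freedom. A group with 1 array, also after another was left out, was taken to vary like the groups with 2. Cell types were averaged over the stages that have both, and stages over the 3 cell types. The method was tested on simulated data.

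The members, the gene lists and the tests were chosen with earlier results of these data known. All 8 members are named in every comparison, with up to 4 genes of each list that had the smallest adjusted p among those that passed, and, for each member, the 3 kept genes most correlated with it over group means. Wfdc3, Wfdc18, Slpi, Wfdc5, Wfdc15b, Duox1, Ngp and the neutrophil genes listed at 0 fall outside this rule and were chosen after their values were seen. Replicate numbers in the titles were checked for pairing: deviations from group means correlated above 0.1 in all 21 pairs of the 7 groups (0.303 to 0.682), so the number was used as a block in 2 alternative fits. The first used numbered arrays of groups with both numbers, and the second set the 8 arrays titled replicate 1 against the other 15. Any 2 arrays differed in at least 98.5% of their probe sets. Promoter sequences are from RefSeq, build GRCm38.p6. The number of arrays limits the precision.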

Additional observations from a re-analysis of the deposited data

How the results depend on the processing

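The count of members that passed between pregnancy and 9-week virgins, 4, fell to 2 with the replicate number as a block, and leaving out single arrays gave 4 to 5. Between luminal progenitors and stem cells the 1 member became 0 without the intensity trend, with only the groups compared, with the numbered block and without the 3 arrays highest in leukocyte genes (a setting chosen after seeing the data), and 2 with arrays titled replicate 1 as a block (single arrays left out: 0 to 1). Between mature luminal and stem cells the 1 member became 2 after quantile normalization, with values below the array median raised to it or with arrays titled replicate 1 as a block, and 0 without the 2 arrays with the largest Gapdh excess (1 to 2). Pregnancy within stem cells, 0, became 1 with raised values and under either block (0 to 1). Within luminal progenitors, 1 became 2 with raised values or arrays titled replicate 1 as a block and 0 with only the groups compared (0 to 1). Within mature luminal cells, 2 became 1 with only the groups compared and 4 with arrays titled replicate 1 as a block (0 to 3). At day 19, 2 became 1 without the filter or the trend, 4 with raised values and 5 with arrays titled replicate 1 as a block (1 to 2). For 3-week virgins, 0 became 2 with raised values or arrays titled replicate 1 as a block and 1 with the mean of all probe sets (0 to 1), and retired breeders gave 0 to 1. Mature luminal cells against luminal progenitors, day 16 against day 10 and the interaction stayed at 0 in every setting run. Within arrays titled replicate 1, chosen as a split after seeing the data and not tested, S100a8 between luminal progenitors and stem cells (-0.59) and Lao1 in pregnancy (-0.36) changed sign. Those arrays hold only virgins for the first difference and only day 10, without luminal progenitors, for the second. The causes of these changes were not tested. Leaving out the only array of a group also removed its stage or cell type from an average. The leukocyte setting thus dropped days 10 and 16 between luminal progenitors and stem cells, and luminal progenitors from the pregnancy average. The Gapdh setting dropped 3-week virgins and retired breeders between mature luminal and stem cells. The block changed no call of a member other than those given here and beside the results. Fits with the numbered block need groups with both numbers, so days 16 and 19, retired breeders and pregnant luminal progenitors could not be fitted that way.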
